A study of Danio rerio with 40 samples.

Results

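Transcripts of the lens crystallins were followed in whole zebrafish embryos and larvae kept in calcitriol or in vehicle. The genes were taken from the deposited table of gene counts by their symbols, as every row named for an alpha, beta or gamma crystallin, which gave 46 of 14267 rows. The cryptochromes, whose symbols also begin with "cry", were left out. The 46 genes comprise 3 alpha crystallins, 6 beta A crystallins, 4 beta B crystallins, 27 gamma M crystallins and 6 other gamma crystallins of the N and S kinds. They lie on 13 chromosomes by the gene identifiers of the files. Chromosome 9 carries 28 of them, among them 24 of the 27 gamma M genes.

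Crystallins are the soluble proteins that fill the fibre cells of the eye lens and give it its transparency and refractive power. Alpha crystallins belong to the small heat shock proteins and act as chaperones that hold damaged lens proteins in solution. Beta and gamma crystallins are related structural proteins that pack into the fibre cytoplasm, and the methionine-rich gamma M group is abundant in the dense lenses of fish. Fibre cells are added throughout larval life by epithelial cells that stop dividing and elongate. Calcitriol, 1α,25(OH)2D3, is the hormone form of vitamin D and acts through the vitamin D receptor.

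All animals were Segrest wild type and were kept in 0.003% 1-phenyl-2-thiourea, which blocks pigment. The treated groups received 300 pM calcitriol in ethanol with a start at 24 hours after fertilization. Collection took place 2, 4, 6 or 7 days after fertilization (dpf). The vehicle groups received ethanol alone and were collected at the same ages. Each of the 8 groups has 5 poly-A RNA libraries, 40 in all, made from sets of 25 to 30 whole animals. The labels also describe larvae treated at 6 dpf for 24 hours, and no library is marked as theirs, so the length of exposure at the later ages is not certain. Lens RNA was therefore measured within whole-animal RNA, in which fewer lens cells and less crystallin RNA per cell cannot be told apart.

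Total counts ranged from 67235165 to 214502251 per library. The shallowest library of each group, replicate 1 of each vehicle group and replicate 5 of each treated group, had at most 81298182 counts, and every other library had at least 106850887. Levels are given in CPM, counts relative to library size with the TMM scaling factors of edgeR, and ± after a level is the SD over 5 libraries. Gene length was not taken into account. Groupings of genes by CPM, shares of counts and words such as sparse or abundant therefore refer to counts, not to numbers of transcripts. Log2 fold changes come from edgeR's quasi-likelihood model with their SE, and a gene is called where the adjusted p is under 0.05. Nothing in the labels ties the 5 libraries of a group to separate clutches, so a p-value here reflects library-to-library spread, which may be technical. Treated replicate 5 stood apart at 7 dpf. Its level of cyp24a1, the gene of the enzyme that inactivates calcitriol, was 1087 CPM, against 1728 to 1892 CPM in the other 4 treated libraries and 207 to 388 CPM in vehicle larvae. It was the lowest treated library for cyp24a1 at every age, and vehicle replicate 1, which has the same number in the deposited exon table, was the lowest vehicle library at every age. Over that vehicle library the cyp24a1 level of treated replicate 5 was 5.26-fold at 7 dpf. Over the vehicle libraries of their own exon-table numbers the other 4 treated libraries had 4.88-fold to 6.35-fold levels. At 7 dpf these numbers were not taken as pairing, so the ratios are a description only. Results at 7 dpf are given with and without replicate 5.

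The crystallins made up a growing share of the larval RNA. In vehicle animals the 46 genes held 0.887% of all counts at 2 dpf, 1.21% at 4 dpf, 1.94% at 6 dpf and 2.22% at 7 dpf. Their summed level was 9330 ± 1354 CPM at 2 dpf, 11051 ± 967 CPM at 4 dpf, 20620 ± 1209 CPM at 6 dpf and 24528 ± 642 CPM at 7 dpf. Within the crystallin counts the gamma M genes took 20.9% at 2 dpf and 26.9% at 7 dpf, and the beta A genes took 35.6% at 2 dpf and 31.7% at 7 dpf. The alpha genes averaged at most 0.593% of the crystallin counts in a vehicle group. Over all 40 libraries 22 genes averaged at least 100 CPM, 15 lay between 1 and 100 CPM and 9 were under 1 CPM, and 36 genes had counts in every library.

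**Figure D1:**
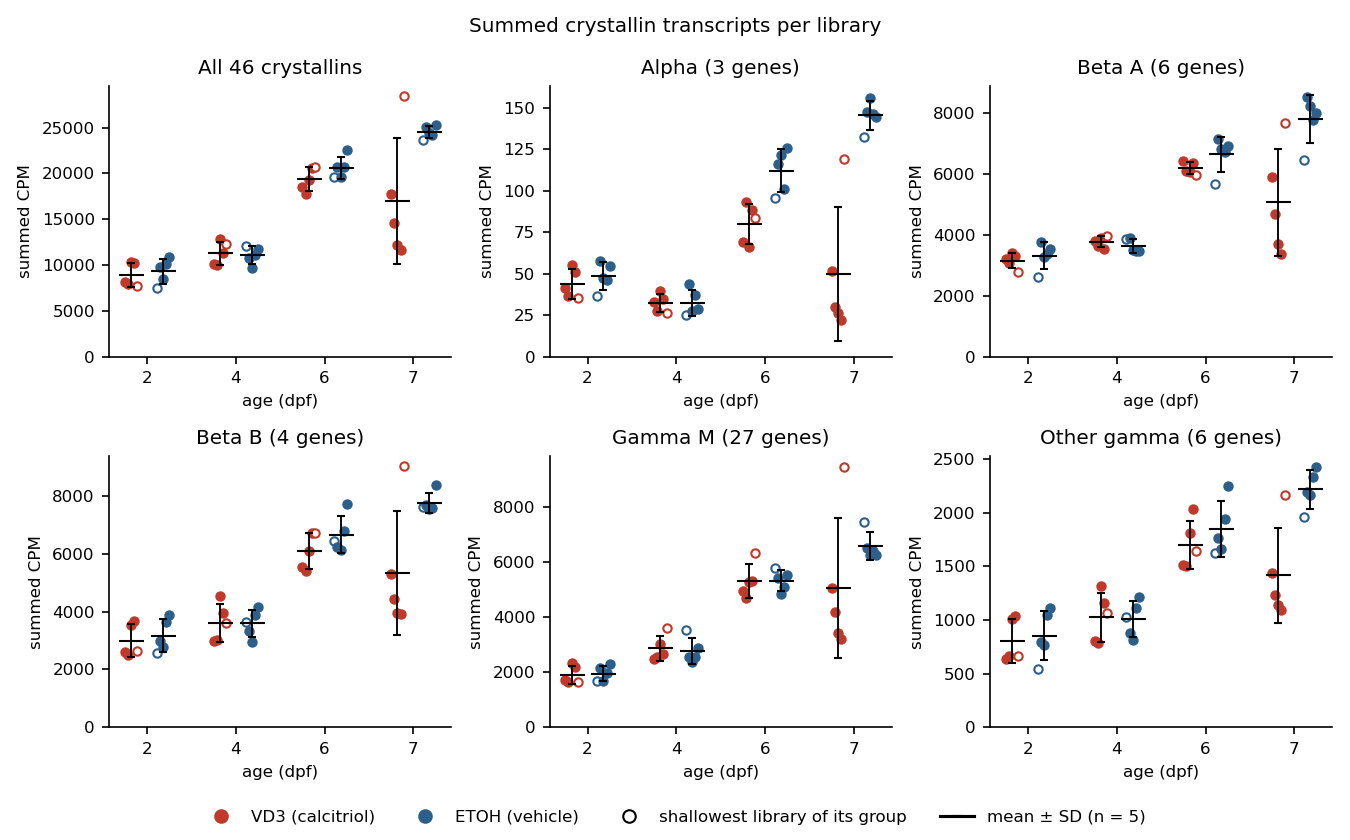
Summed level of all crystallins and of each class (CPM, vertical axes) by age in dpf, in calcitriol-treated (VD3) and vehicle (ETOH) animals. Points are libraries, open where they are the shallowest of their group, and bars give the mean ± SD of 5 libraries. At 7 dpf treated replicates 1 to 4 lie below the vehicle libraries in every panel, and treated replicate 5 lies higher than these. In the alpha panel replicate 5 also lies below the vehicle libraries.

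The comparison of vehicle larvae at 6 dpf with vehicle larvae at 4 dpf asks how the crystallins change in normal development, and it moved nearly the whole family. Of 43 genes tested, 36 were higher at 6 dpf (edgeR, adjusted p under 0.05), where 18.1% of all genes tested were higher, and none was lower. In 36 of the 43 genes tested, the called ones, all 5 libraries at 6 dpf lay above all 5 at 4 dpf, against 12.6% of all genes tested. No crystallin was lower at 6 dpf at an unadjusted edgeR p under 0.05, nor by DESeq2, which called 20.9% of all genes lower. The limma voom fit called 1 lower, against 28.0% of all genes. The median log2 fold change was 0.97 over the crystallins and -0.01 over all genes.

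Most transcripts of the beta and gamma M structural proteins rose: 6 of 6 beta A, 3 of 4 beta B and 24 of 26 gamma M genes were called higher. Of the 5 other gamma genes tested 2 were called higher and 3 were not called, with log2 fold changes of -0.77 to 2.11. The gene cryaa, which encodes the alpha A chaperone, had 95.1, 115, 121, 101 and 125 CPM in vehicle larvae at 6 dpf and 24.3, 43.0, 26.5, 36.9 and 28.5 CPM at 4 dpf. The libraries of these ages lay far apart, a 3.49-fold rise (log2 1.80 ± 0.16, edgeR adjusted p = 2.19e-05). The gamma N gene crygn1, of a kind that stands between the beta and gamma families, averaged 16.6 ± 3.96 CPM at 6 dpf and 3.81 ± 1.33 CPM at 4 dpf, a 4.33-fold rise (log2 2.11 ± 0.24, edgeR adjusted p = 9.17e-05). The gamma M gene crygm2f averaged 15.4 ± 2.57 CPM at 6 dpf and 4.94 ± 0.810 CPM at 4 dpf (log2 1.64 ± 0.15). The beta A gene cryba1a averaged 22.4 ± 1.68 CPM at 6 dpf and 9.52 ± 1.44 CPM at 4 dpf (log2 1.23 ± 0.11). All 14 genes named crygm2d rose, by log2 fold changes of 0.82 to 1.21, and the highest was crygm2d12 with 352 ± 16.4 CPM at 6 dpf and 152 ± 27.7 CPM at 4 dpf. The sequences of the crygm2d genes were not compared. They may be close copies among which reads were split, so the values of single genes are uncertain. They enter the counts of genes as 14 separate genes.

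Between 2 and 4 dpf more crystallins rose than fell in vehicle animals, and the falls were below the share of all genes. Of 40 genes tested, 21 were higher at 4 dpf, against 32.1% of all genes, and 4 were lower, against 30.2% of all genes (edgeR, adjusted p under 0.05). Of the 21 higher genes 18 were gamma M. The largest rise among well-counted genes was in crygm2d11, with 133, 121, 111, 103 and 110 CPM in vehicle animals at 4 dpf and 5.38, 17.2, 9.08, 8.24 and 14.4 CPM at 2 dpf. The ages did not overlap, and the level was 10.6-fold higher at 4 dpf (edgeR, adjusted p = 5.1e-07). The gamma M genes crygm5 (log2 fold change 1.71), crygm2d16 (1.38), crygm2d15 (1.24) and crygmx (0.81) rose as well.

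The 4 genes that fell in vehicle animals between 2 and 4 dpf came from 4 classes. The beta B gene crybb1l3 averaged 2.31 ± 0.516 CPM at 4 dpf and 6.83 ± 1.395 CPM at 2 dpf (log2 fold change -1.56 ± 0.19, edgeR adjusted p = 1.57e-05). The gamma M gene crygmxl1 averaged 1.31 ± 0.364 CPM at 4 dpf and 3.43 ± 1.13 CPM at 2 dpf (log2 -1.38 ± 0.26). The gamma S gene crygs1 had a log2 fold change of -1.05, and its call was lost in 7 of 20 alternatives (no scaling factors and 6 fits that left out 1 library). The level of cryaa was 31.8 ± 7.85 CPM at 4 dpf and 48.4 ± 8.22 CPM at 2 dpf, with libraries that overlapped (log2 -0.61, edgeR adjusted p = 0.00776), and its call was lost without scaling factors. The chaperone gene thus had its lowest vehicle level at 4 dpf among the 4 ages.

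From 6 to 7 dpf the rise was smaller. Of 43 genes tested, 18 were higher at 7 dpf, against 7.1% of all genes, and none was lower, against 4.92% (edgeR, adjusted p under 0.05). At an unadjusted p under 0.05 edgeR placed 1 gene lower. DESeq2 called 0 lower, against 7.84% of all genes, and limma voom called 2 lower, against 17.4%. All 18 had also been called higher at 6 dpf against 4 dpf, in a comparison that shares the 6 dpf libraries. The largest well-counted rises were in crygm2d2, with 489 ± 57.9 CPM at 7 dpf and 358 ± 33.3 CPM at 6 dpf (log2 fold change 0.48), and in crygm2d8 (0.46), cryaa (0.41), crygm2d12 (0.40) and crygm2d1 (0.38). Vehicle libraries of the same replicate number deviated together at 6 and 7 dpf, though only 2 of 5 were closest to their own number. With the number as a block 30 genes were higher, against 16.9% of all genes, and crybb1l3 was lower, against 15.8%. The count of higher genes fell to 8 without scaling factors, against 4.25% of all genes. In a fit of all 40 libraries it fell to 2 of 46, against 3.79%, which lies near the share of all genes.

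**Figure D2:**
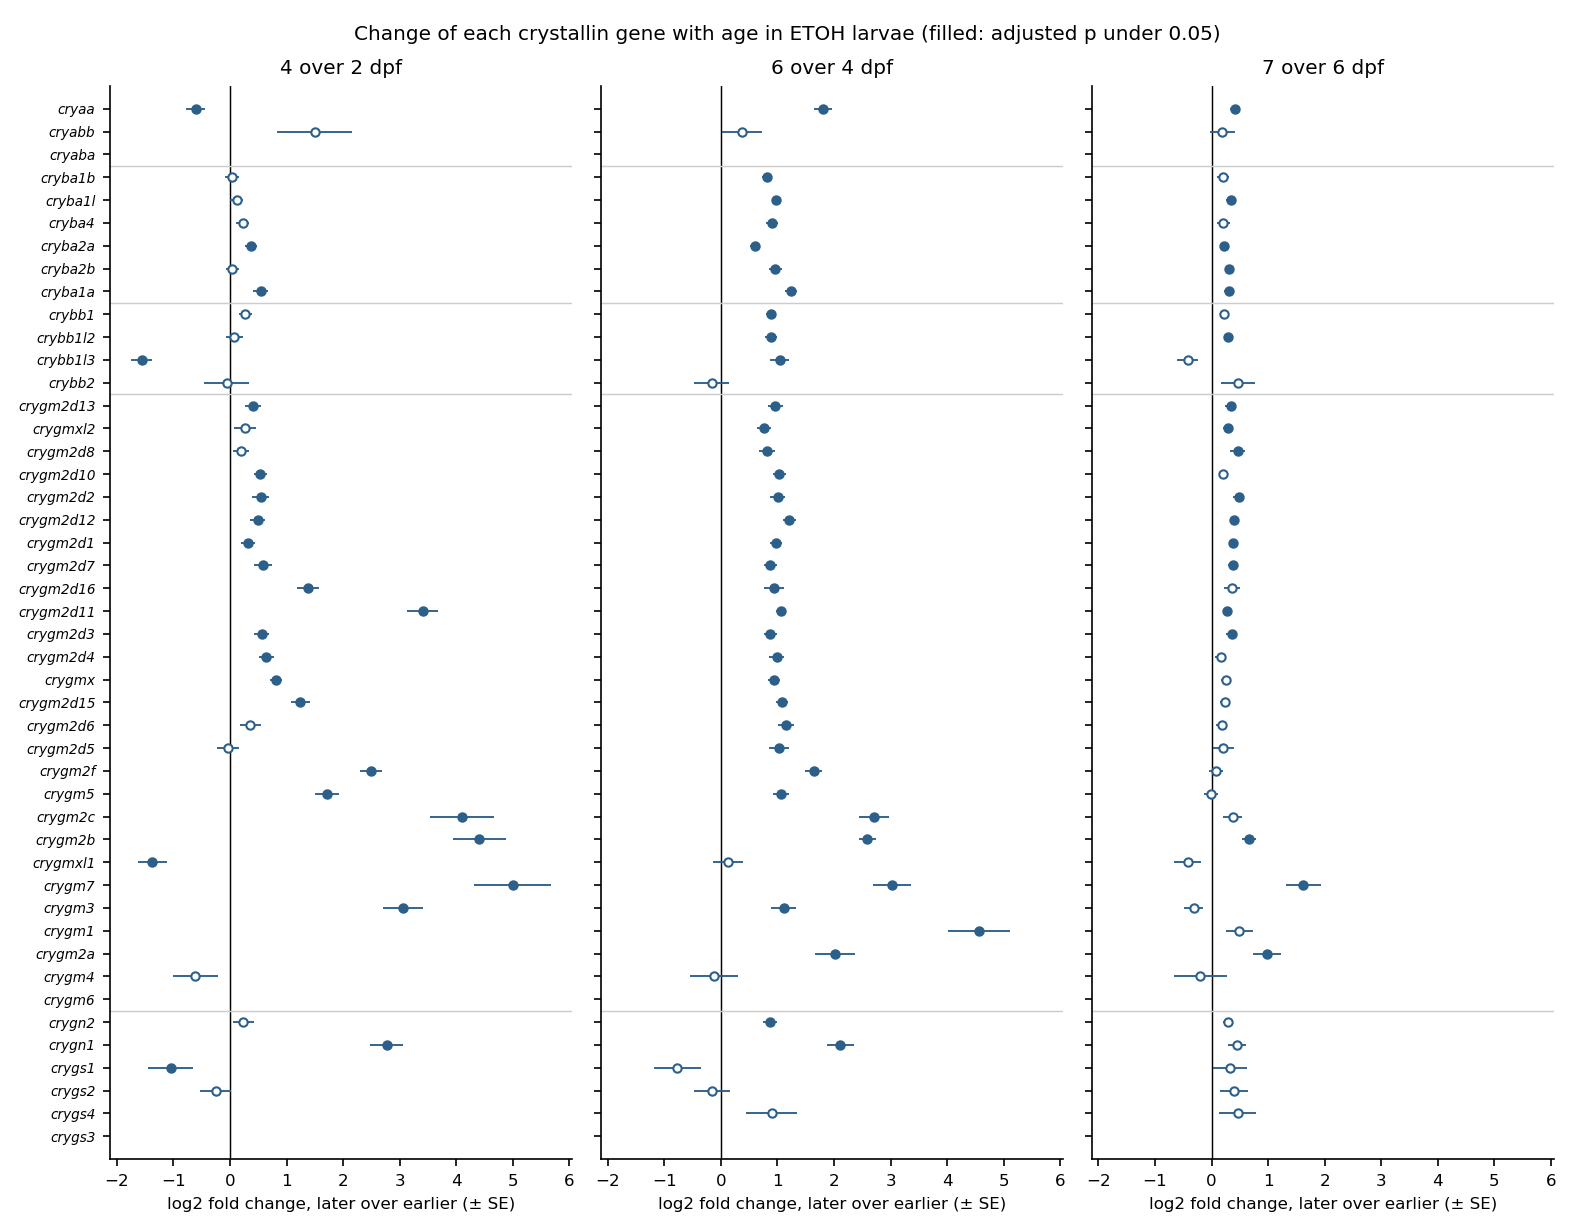
Log2 fold change of each crystallin with age in vehicle (ETOH) animals, later over earlier age, with bars for the SE and filled points for genes called by edgeR. Classes are separated by lines and genes not tested have no point. All 36 called genes at 6 over 4 dpf lie to the right of 0.

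The comparisons of calcitriol with vehicle at 2 and 4 dpf ask whether the crystallins respond in the first days of exposure. No crystallin was called at 2 dpf by edgeR among 37 tested, where 0.00757% of all genes were called, and none had an unadjusted p under 0.05. DESeq2 and limma voom also called 0. The smallest p-values at 2 dpf belonged to crygmxl1 (log2 fold change 0.27 ± 0.22), crygm2d5 (-0.27 ± 0.24) and crygm2f (0.22 ± 0.22), with edgeR adjusted p-values of 1.0 each. The median over the crystallins was -0.05, against -0.01 over all genes. The summed crystallin level was 8905 ± 1303 CPM in treated and 9330 ± 1354 CPM in vehicle embryos.

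At 4 dpf no crystallin was called by edgeR among 43 tested, and no gene of the whole table was called (0.0%). An unadjusted edgeR p under 0.05 was found for 5 crystallins, all higher in treated larvae. The share of all genes at that p is not given here, so the 5 are no result about the family. DESeq2 called 1 crystallin higher, against 0.403% of all genes, and limma voom called 0, against 0.224% in either direction. The gene with the smallest p was crygmxl1, which had 2.59, 2.28, 2.59, 2.15 and 2.00 CPM in treated larvae and 1.42, 1.78, 1.44, 1.11 and 0.814 CPM in vehicle larvae. Its treated libraries all lay above the vehicle libraries, which 0.82% of all genes did, and the log2 difference was 0.83 ± 0.20 (edgeR, adjusted p = 0.31). The other gamma M genes crygm2b (log2 fold change 0.82 ± 0.24) and crygm3 (0.64 ± 0.23) followed with edgeR adjusted p-values of 0.45 and 0.56.

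Replicate numbers of the deposited exon table, which differ from those of the gene table for treated libraries, paired treated with vehicle libraries at 2, 4 and 6 dpf. With that number as a block, 3 of 43 crystallins were higher in treated larvae at 4 dpf, against 5.22% of all genes. None was lower, against 4.14%. The higher count lies near the share of all genes and is no result about the family as a whole. The 3 genes were crygmxl1 (log2 fold change 0.86, edgeR adjusted p = 0.0095), crygm3 (0.66, adjusted p = 0.0416) and the beta B gene crybb1l3 (0.44, adjusted p = 0.0401).

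At 6 dpf a set of sparsely counted gamma crystallins was higher in treated larvae and 1 alpha and 1 beta A gene were lower, while no abundant crystallin was called. Of 44 genes tested 9 were higher in treated larvae, against 4.37% of all genes, and 2 were lower, against 6.32% (edgeR, adjusted p under 0.05). With the exon-table number as a block 10 were higher, against 12.9% of all genes, and 3 were lower, against 12.7%. The values that follow are without the block. The 9 higher genes were 7 of 26 gamma M genes, the beta B gene crybb2 and the gamma S gene crygs2. Among the 44 tested, treated libraries all lay above vehicle libraries in 6 genes, all of them called, against 3.32% of all genes. They all lay below in 2 genes, both called, against 6.63% of all genes. The vehicle means of the 9 higher genes lay between 0.337 and 13.9 CPM. Of the 22 crystallins that averaged at least 100 CPM, 0 were called in either direction by edgeR, against 3.45% higher and 8.84% lower among all genes at that level. None of these 22 was called by DESeq2, which called 16.3% of all genes at any level. The limma voom fit called 1 of them lower, against 15.3% of all genes at any level.

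The gamma M gene crygm1 had 3.44, 3.57, 4.17, 4.16 and 2.06 CPM in treated larvae and 1.00, 1.71, 1.18, 0.966 and 0.576 CPM in vehicle larvae at 6 dpf. Every treated library lay above every vehicle library, at a 3.25-fold rise (log2 fold change 1.70 ± 0.27, edgeR adjusted p = 0.00192). The related gene crygmxl1 had 4.25, 4.39, 4.12, 3.93 and 5.75 CPM in treated larvae and 2.31, 1.59, 1.12, 1.32 and 0.922 CPM in vehicle larvae. Its groups did not overlap either, and the rise was 3.16-fold (log2 1.66 ± 0.23, edgeR adjusted p = 0.000855). The level of crygm2b was 5.91, 4.31, 7.02, 6.62 and 4.79 CPM in treated larvae and 2.55, 3.16, 2.67, 2.34 and 2.44 CPM in vehicle larvae. It was the crystallin with the smallest p at 6 dpf, a 2.204-fold rise (log2 1.14 ± 0.15, edgeR adjusted p = 0.00066).

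The beta B gene crybb2, which in mammals encodes a major soluble lens protein, had 1.21, 1.00, 1.29, 0.953 and 0.493 CPM in treated larvae and 0.187, 0.259, 0.406, 0.313 and 0.519 CPM in vehicle larvae at 6 dpf. Treated replicate 5 overlapped the vehicle libraries, and the other 4 treated libraries lay above them (log2 fold change 1.55 ± 0.29, edgeR adjusted p = 0.00598). The other rises at 6 dpf were those of crygm2a (log2 0.93), crygm2c (0.89), crygs2 (0.85), crygm3 (0.80) and crygm5 (0.43). The calls of crygm2a (edgeR adjusted p = 0.056) and crygm5 (0.201) were lost in a fit of all 40 libraries. The calls of crygs2 and crygm3 did not survive the removal of single libraries: crygs2 was lost in 7 such fits and crygm3 in 6.

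The alpha A chaperone gene cryaa had 68.4, 92.5, 65.6, 87.6 and 82.8 CPM in treated larvae and 95.1, 115, 121, 101 and 125 CPM in vehicle larvae at 6 dpf. All treated libraries lay below all vehicle libraries, at 1.39-fold lower levels in treated larvae (log2 fold change -0.47 ± 0.11, edgeR adjusted p = 0.0213). The beta A gene cryba1a had 14.5, 14.5, 18.2, 16.9 and 18.0 CPM in treated larvae and 23.8, 21.8, 20.9, 20.8 and 24.5 CPM in vehicle larvae. It too had no overlap and was 1.35-fold lower in treated larvae (log2 -0.43 ± 0.10, edgeR adjusted p = 0.0134). The call of cryaa was lost without treated replicate 1 and without vehicle replicate 2, 3 or 5, and both lower calls were lost in a fit of all 40 libraries (highest adjusted p = 0.289 for cryaa and 0.0636 for cryba1a). With no scaling factors, which moved the median of all genes by 0.135 at 6 dpf, 11 crystallins were higher, against 12.8% of all genes, and 1 was lower, against 4.51%.

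**Figure D3:**
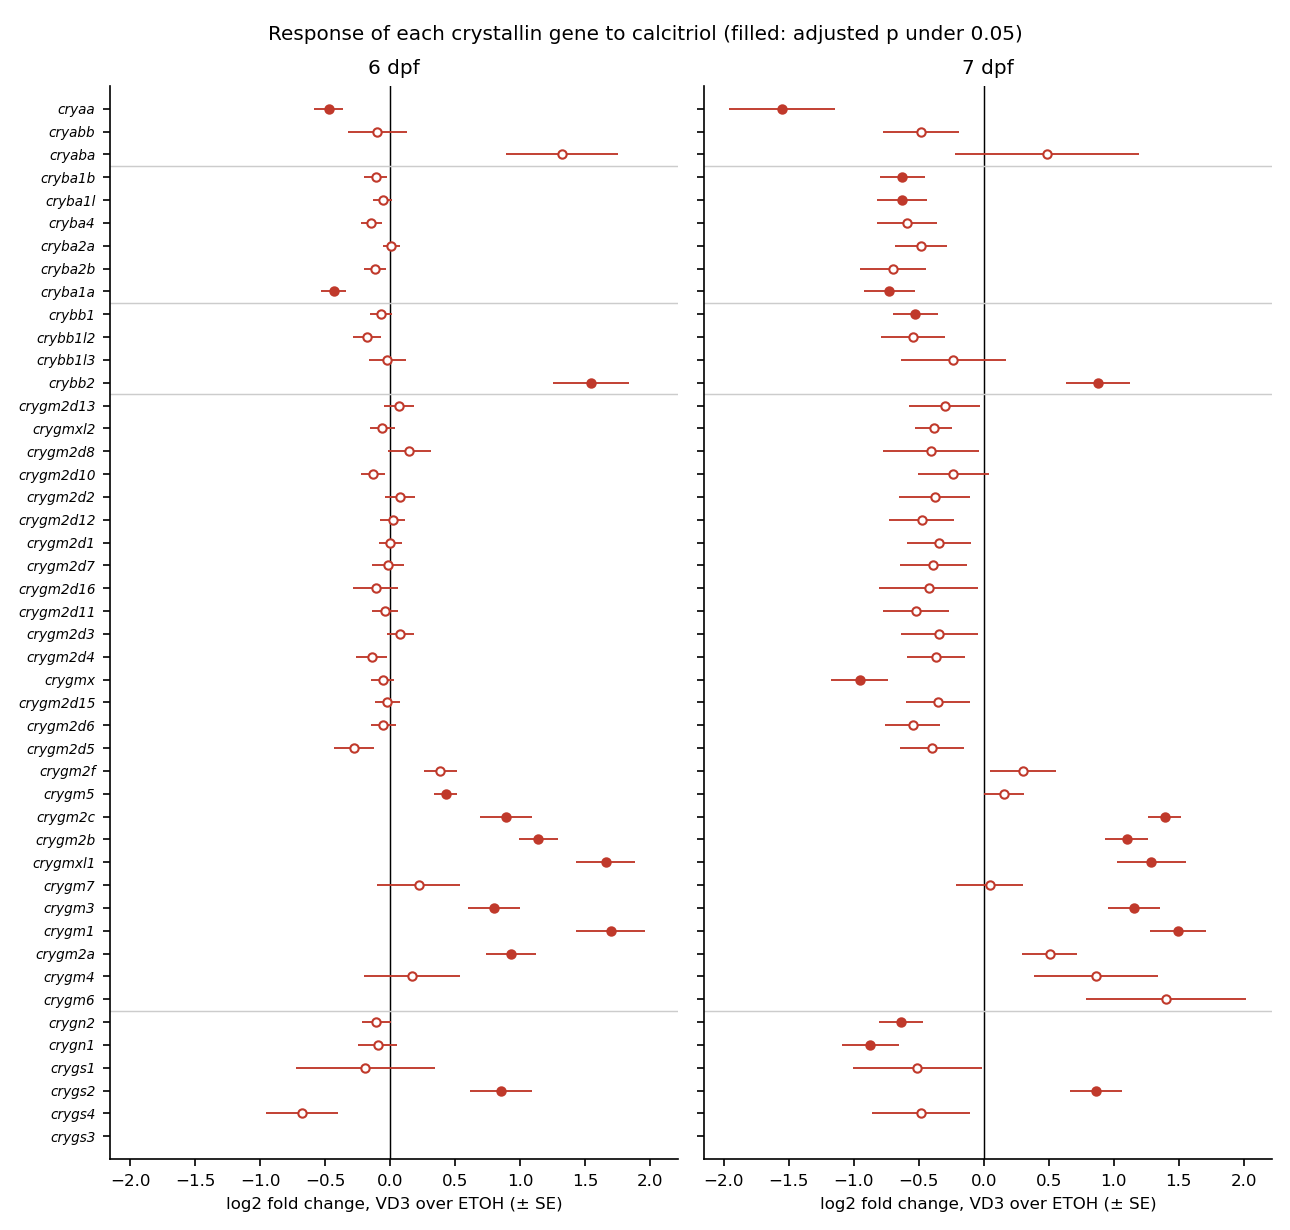
Log2 fold change of each crystallin in calcitriol-treated (VD3) over vehicle (ETOH) larvae at 6 dpf (left) and 7 dpf (right), with bars for the SE and filled points for genes called by edgeR. Classes are separated by lines and, within a class, genes run from the highest to the lowest mean level. The called rises belong to genes with a vehicle mean of at most 13.9 CPM, and cryaa has the lowest value at 7 dpf at -1.55.

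At 7 dpf crystallins were called in both directions by edgeR with all libraries, at shares near those of all genes. Of 45 genes tested 7 were higher in treated larvae, against 14.6% of all genes, and 8 were lower, against 14.2% (edgeR, adjusted p under 0.05). These edgeR counts, at the background share, are no result about the family as a whole. DESeq2 called 12 lower, against 17.0% of all genes, and 7 higher, against 17.8%. The limma voom fit called 29 lower, against 31.0%, and 10 higher, against 30.7%. A fit of all 40 libraries called 14 of 46 lower, against 15.2%, and 6 higher, against 14.5%. The median log2 fold change was -0.38 over the crystallins and 0.01 over all genes. Of the 22 crystallins that averaged at least 100 CPM, 5 were lower, against 18.4% of all genes at that level, and 0 were higher by edgeR, against 15.1%. Among the 45 tested, treated libraries all lay above vehicle libraries in 5 genes, all of them called, against 8.16% of all genes. They all lay below in 2 genes, both called, against 9.96% of all genes. The 7 higher genes were 7 of the 9 called higher at 6 dpf, and both genes lower at 6 dpf were among the 8 lower at 7 dpf. The ages share no library. Vehicle libraries of the same number deviated together at 6 and 7 dpf, with correlations of 0.38 to 0.76, so the calls at these ages may not be independent. Without scaling factors, which moved the median of all genes by 0.178, 8 crystallins were higher, against 30.7% of all genes, and 6 were lower, against 8.56%.

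The alpha chaperone cryaa had the largest fall. It had 50.9, 29.2, 25.5, 21.5 and 118 CPM in treated larvae and 132, 147, 155, 145 and 144 CPM in vehicle larvae at 7 dpf. All 5 treated libraries lay below all vehicle libraries, replicate 5 by the least. The level was 2.93-fold lower in treated larvae (log2 fold change -1.55 ± 0.41, edgeR adjusted p = 0.0144) and 4.52-fold lower without treated replicate 5 (log2 -2.18). The alpha B genes cryaba and cryabb, whose mammalian counterpart is also made in muscle and heart, were not called. Their means at 7 dpf were under 1 CPM in both groups, and cryabb averaged 0.529 ± 0.229 CPM in treated larvae and 0.747 ± 0.162 CPM in vehicle larvae (log2 -0.48 ± 0.29, edgeR adjusted p = 0.243).

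Of the beta A structural genes 3 of 6 fell. The gene cryba1a had 15.4, 13.1, 13.0, 12.8 and 27.1 CPM in treated larvae and 23.8, 27.8, 29.0, 26.8 and 27.8 CPM in vehicle larvae at 7 dpf. Replicates 1 to 4 of the treated larvae lay below all vehicle libraries and replicate 5 among them (log2 fold change -0.73 ± 0.19, edgeR adjusted p = 0.0159). The same order held for cryba1b, with 1720, 1357, 1074, 1039 and 1958 CPM in treated larvae and 1751, 2476, 2384, 2159 and 2321 CPM in vehicle larvae (log2 -0.63 ± 0.18, edgeR adjusted p = 0.0202). The paralog cryba1l fell as well (log2 -0.63 ± 0.19, edgeR adjusted p = 0.0292), though its call was lost in 6 of the fits that left out 1 library. The nearest gene that did not pass was cryba2b (log2 -0.70, edgeR adjusted p = 0.0578).

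Among the beta B genes 1 fell and 1 rose at 7 dpf. The abundant crybb1 had 3079, 2607, 2303, 2339 and 4661 CPM in treated larvae and 4089, 4277, 4341, 4245 and 4773 CPM in vehicle larvae. Its call (log2 fold change -0.53 ± 0.17, edgeR adjusted p = 0.0398) was lost in 8 of the fits that left out 1 library, with a highest adjusted p of 0.0905. The paralog crybb1l2 had 2234, 1839, 1649, 1598 and 4387 CPM in treated larvae and 3557, 3416, 3228, 3340 and 3624 CPM in vehicle larvae, with replicate 5 above and the other treated libraries below all vehicle libraries. It did not pass (log2 -0.54 ± 0.24, edgeR adjusted p = 0.116). The sparse crybb2 averaged 0.861 ± 0.156 CPM in treated larvae and 0.472 ± 0.145 CPM in vehicle larvae (log2 0.88 ± 0.24, edgeR adjusted p = 0.0191), and its call was lost in 3 such fits.

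The gamma M genes are given here by name, the crygm2d genes first. The 14 genes named crygm2d gave no call at 7 dpf by edgeR, with log2 fold changes of -0.55 to -0.23, 1 of them at an unadjusted p under 0.05. DESeq2 called 1 of the 14 lower, against 17.0% of all genes. The limma voom fit called all 14 lower, against 31.0% of all genes. The crygm2d gene with the most counts, crygm2d13, had 1007, 859.8, 693, 656 and 2037 CPM in treated larvae and 1633, 1243, 1181, 1228 and 1216 CPM in vehicle larvae (log2 -0.30 ± 0.27, edgeR adjusted p = 0.446). Of the other 13 gamma M genes 5 were higher and 1 was lower. The best counted of these 13, crygmxl2, averaged 725 ± 175 CPM in treated larvae and 952 ± 66.3 CPM in vehicle larvae and did not pass (log2 -0.38 ± 0.14, edgeR adjusted p = 0.0603). The fallen gene, crygmx, had 115, 78.2, 65.0, 73.0 and 160 CPM in treated larvae and 170, 201, 196, 183 and 206 CPM in vehicle larvae. All treated libraries lay below the vehicle libraries, at 1.94-fold lower levels in treated larvae (log2 fold change -0.95 ± 0.22, edgeR adjusted p = 0.00722).

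The rises among the gamma M genes at 7 dpf were again in sparse transcripts. The level of crygm2c was 19.5, 18.9, 17.2, 16.4 and 14.5 CPM in treated larvae and 5.79, 8.33, 6.79, 5.44 and 6.74 CPM in vehicle larvae. Every treated library exceeded every vehicle library, a 2.63-fold rise (log2 fold change 1.39 ± 0.13, edgeR adjusted p = 1.84e-05). The gene crygm1 had 5.42, 4.69, 4.80, 3.77 and 2.29 CPM in treated larvae and 1.31, 1.87, 1.58, 1.27 and 1.45 CPM in vehicle larvae. Its groups did not overlap and the rise was 2.82-fold (log2 1.49 ± 0.21, edgeR adjusted p = 0.000471). The genes crygmxl1 (2.45-fold), crygm3 (2.23-fold) and crygm2b (2.14-fold) rose likewise, with no overlap between treated and vehicle libraries.

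**Figure D4:**
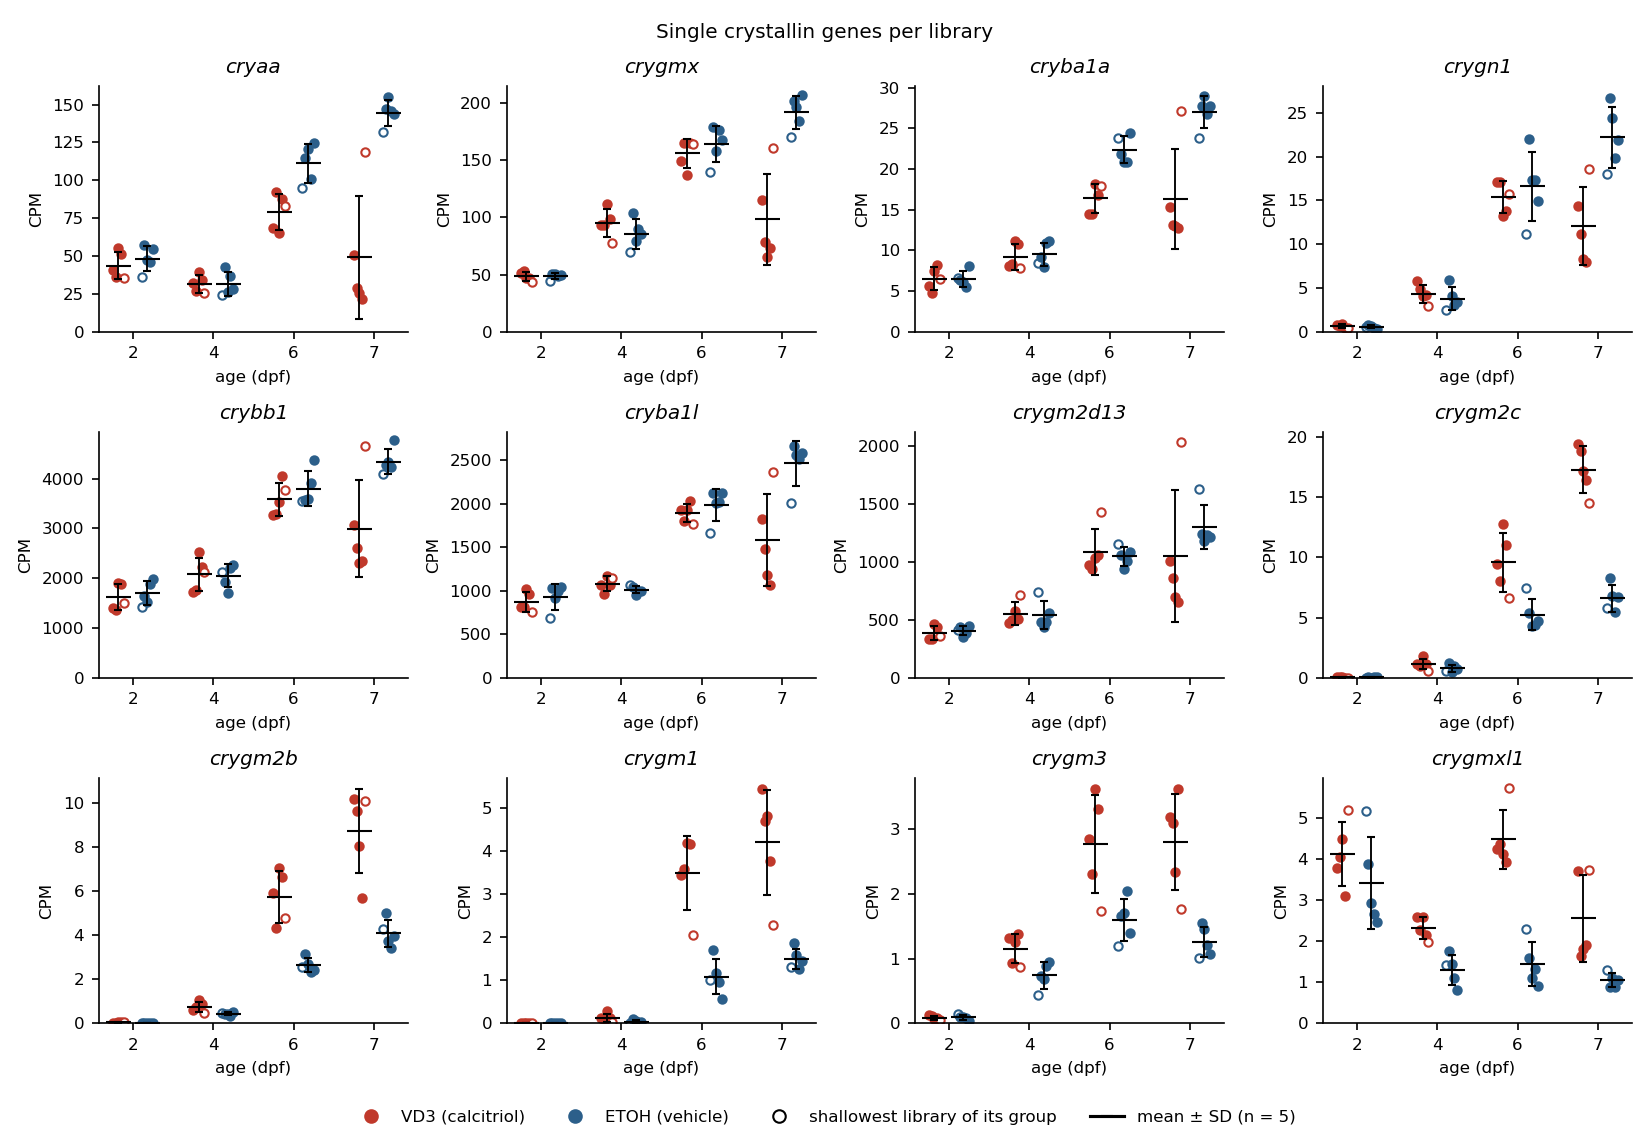
Level of 12 crystallins in every library (CPM) by age in dpf, in calcitriol-treated (VD3, left of each pair) and vehicle (ETOH) animals, with bars for the mean ± SD of 5 libraries and open points for the shallowest library of each group. The treated libraries of cryaa lie below the vehicle libraries at 6 and 7 dpf, and those of crygm1 lie above them at both ages.

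Of the gamma N and S genes 2 fell and 1 rose at 7 dpf. The gene crygn2 had 1426, 1223, 1130, 1085 and 2148 CPM in treated larvae and 1944, 2169, 2143, 2314 and 2409 CPM in vehicle larvae. Treated replicate 5 lay within the vehicle range and the other 4 treated libraries below it (log2 fold change -0.64 ± 0.17, edgeR adjusted p = 0.0155). The gene crygn1 averaged 12.1 ± 4.47 CPM in treated larvae and 22.2 ± 3.49 CPM in vehicle larvae (log2 -0.87 ± 0.22, edgeR adjusted p = 0.0122). The gamma S gene crygs2 averaged 1.35 ± 0.336 CPM in treated larvae and 0.748 ± 0.0836 CPM in vehicle larvae (log2 0.87 ± 0.20, edgeR adjusted p = 0.00733).

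The summed crystallin level at 7 dpf was 17762, 14622, 12220, 11628 and 28485 CPM in treated larvae and 23690, 25085, 24373, 24237 and 25255 CPM in vehicle larvae. Treated replicates 1 to 4 had 72.4%, 59.6%, 49.8% and 47.4% of the vehicle mean, and replicate 5 had 116% of it. For the alpha genes these shares were 35.4%, 20.6%, 18.2% and 15.1%, with 82.1% in replicate 5. The gamma M sum was 76.9%, 63.9%, 51.8% and 48.6% of the vehicle mean in replicates 1 to 4 and 144% in replicate 5. Replicate 5 was above the other 4 treated libraries in 33 of 45 crystallins, against 36.9% of all genes tested, and above all vehicle libraries in 26, against 29.5% of all genes tested.

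Without treated replicate 5 the picture at 7 dpf widened on the lower side. The count became 29 lower, against 21.5% of all genes, and 8 higher, against 20.7% (edgeR, adjusted p under 0.05). Among the 45 tested, the 4 treated libraries lay below all vehicle libraries in 27 genes, all of them called, against 17.8% of all genes. The lower genes included all 8 found with all libraries, all 6 beta A genes, 3 of 4 beta B genes and all 14 crygm2d genes, whose log2 fold changes were -1.04 to -0.62. All 22 crystallins that averaged at least 100 CPM were lower, against 29.1% of all genes at that level. The median log2 fold change of the 29 was -0.79. The 8 higher genes were the 7 found with all libraries and crygm6. The last averaged only 0.049 CPM over the 40 libraries and had counts in 20 of them. Among the 45 tested, the 4 treated libraries lay above all vehicle libraries in 7 genes, near the 17.2% of all genes. The part of the depth and of the cyp24a1 level of replicate 5 in these differences was not tested.

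**Figure D5:**
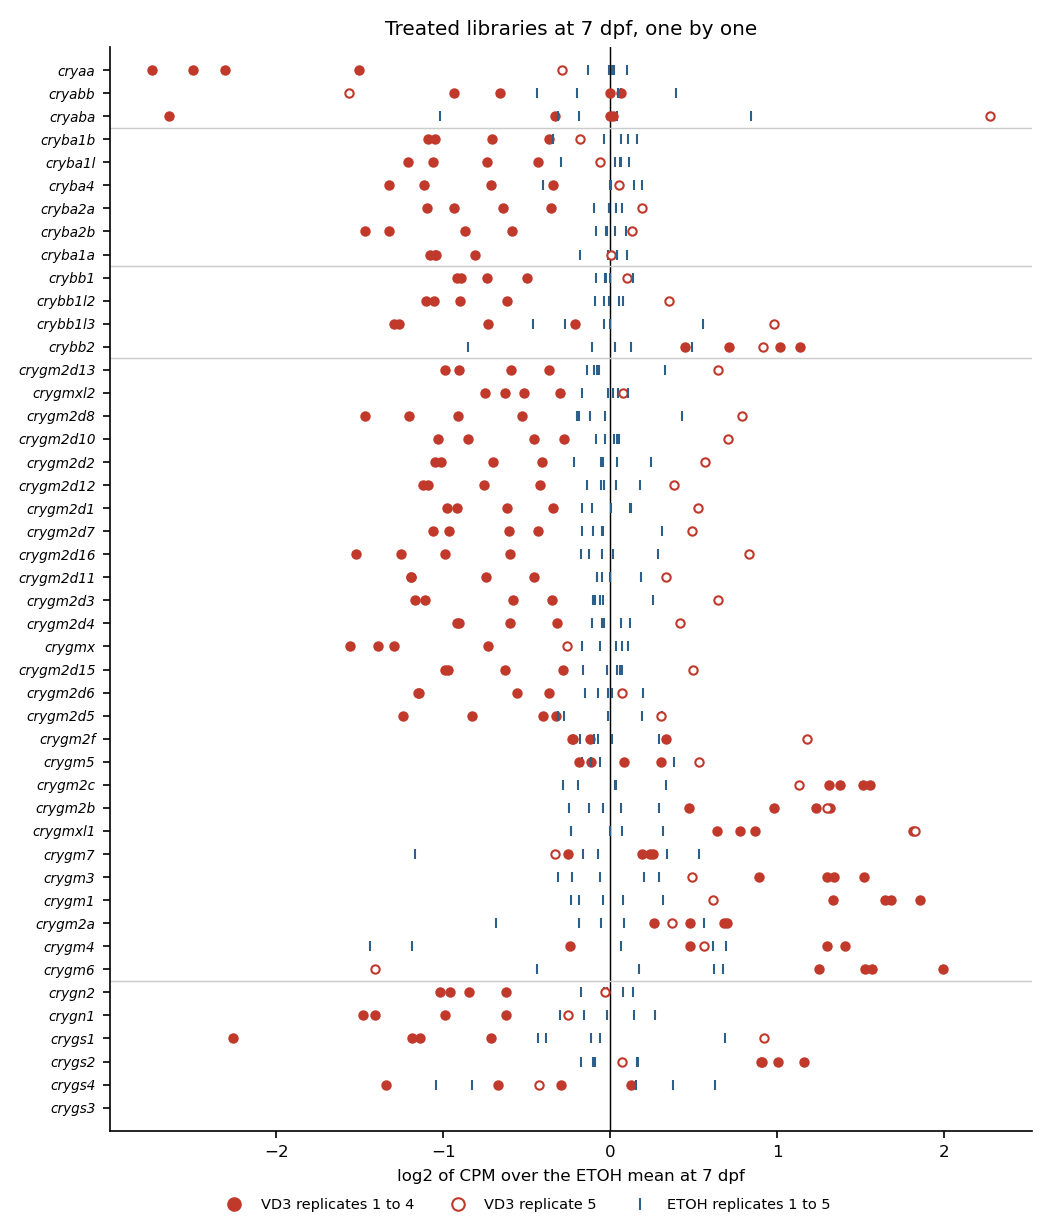
Level of each crystallin except crygs3 in each library at 7 dpf, as log2 of CPM over the vehicle (ETOH) mean. The row of crygs3 was left empty. Filled points are treated (VD3) replicates 1 to 4, open points treated replicate 5 and ticks the 5 vehicle libraries. A library with 0 counts is not drawn. Replicates 1 to 4 lie left of the vehicle ticks for the genes that average at least 100 CPM, except cryba4, and replicate 5 lies to the right of the other treated libraries for each of these genes.

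Whether the response to calcitriol differed between ages was tested over all 46 crystallins in 1 model of the 40 libraries, and 5 were called, against 7.79% of all genes (edgeR, adjusted p under 0.05). With all libraries this count lies near the share of all genes and is no result about the family as a whole. The gene crygmx had the smallest p (edgeR, adjusted p = 0.000805). Its treatment effect was lower at 7 dpf than at 4 dpf by a log2 difference of -1.12 ± 0.21 (edgeR, adjusted p = 0.00102) and lower than at 6 dpf by -0.89 ± 0.21 (adjusted p = 0.00952), a difference called negative in 0.0733% of all genes. At 6 dpf crygmx had averaged 156 ± 12.5 CPM in treated larvae and 164 ± 15.9 CPM in vehicle larvae.

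For cryaa the effect at 7 dpf was lower than at 4 dpf by -1.55 ± 0.37 (edgeR, adjusted p = 0.0129) and lower than at 2 dpf by -1.41, a difference called negative in 4.27% of all genes. Its difference between 7 and 6 dpf was -1.07 and did not pass (edgeR, adjusted p = 0.134). The beta A genes cryba1l (-0.74 ± 0.19) and cryba1b (-0.69 ± 0.19) also had lower effects at 7 than at 4 dpf, a difference called negative in 2.61% of all genes. The gene crygmxl1 had a higher effect at 6 than at 2 dpf, by 1.37 ± 0.33 (edgeR, adjusted p = 0.0141), where 0.586% of all genes were called positive. Leaving out replicate 5 of all groups raised the number of crystallins called to 26, against 13.2% of all genes. Leaving out replicate 2, 3 or 4 lowered it to 1, crygmx, against 3.58%, 2.9% and 2.78% of all genes.

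Lists of other lens, eye and muscle genes are set here beside the crystallins at 7 dpf. The shares of all genes called were 14.6% higher and 14.2% lower, and the lower counts of the lens lists lay near that share. A list of 19 lens fibre genes holds genes for membrane and cytoskeleton proteins and also others, such as cdkn1c, tdrd7 and hspb11. Of these 19 genes 3 fell and 2 rose, with a median log2 fold change of -0.31 against 0.01 over all genes. The fallen genes were grifin, a galectin-related lens protein (-1.53, edgeR adjusted p = 0.0274), lim2.5, of the lens fibre membrane protein family (-0.90), and lctlb (-0.99), and the risen ones were epha2 (0.76) and hspb11 (0.64). The summed level of these 19 genes was 722, 552, 458, 392.4 and 1370 CPM in treated larvae and 1180 to 1265 CPM in vehicle larvae, with replicate 5 the highest treated library here as well. The aquaporin 0 genes of the lens did not pass: mipa averaged 68.9 ± 83.5 CPM in treated and 187 ± 7.92 CPM in vehicle larvae, and mipb 125 ± 142 CPM in treated and 349 ± 30.3 CPM in vehicle larvae. Without treated replicate 5, 9 genes of the list fell, against 21.5% of all genes, and 2 rose, against 20.7%, with mipa (-2.52) and mipb (-2.46) among the fallen. Of 12 lens transcription factor genes 2 fell, foxe3, which acts in the lens epithelium, with 0.376 ± 0.120 CPM in treated and 1.24 ± 0.365 CPM in vehicle larvae, and maf, an activator of crystallin genes (log2 -0.51).

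Of 21 photoreceptor genes 18 fell at 7 dpf, against 14.2% of all genes, and none rose (edgeR), with a median log2 fold change of -1.22. The cone opsin genes opn1mw1 (-3.20), opn1sw1 (-2.46) and opn1sw2 (-2.19) were among them. The photoreceptor sum ranged from 2391 to 4236 CPM in treated larvae and from 5496 to 8507 CPM in vehicle larvae. Of 16 skeletal muscle genes 8 fell and none rose, led by ckmb (-0.57), atp2a1 (-0.58) and ckma (-0.55), and their sum ranged from 95979 to 133522 CPM in treated and from 135428 to 151969 CPM in vehicle larvae. Of the 8 other small heat shock genes, relatives of the alpha crystallins, 3 were called higher, against 14.6% of all genes, and none lower. These were hspb9 (1.73), hspb1 (0.95) and hspb8 (0.72). At 6 dpf the fallen counts were 0 of 19 lens fibre genes, 1 of 12 lens transcription factor genes (foxe3, -0.76), 8 of 21 photoreceptor genes and 6 of 16 skeletal muscle genes, against 6.32% of all genes, and 1 of 8 small heat shock genes rose, against 4.37%. The part of these genes and of the cells they mark in the crystallin results was not tested.

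Further crystallin rows lie outside the symbol rule. RefSeq lists 8 rows with placeholder symbols as beta or gamma crystallins, 6 of them under crygm2d names on chromosome 9. The rows zgc-173452 and zgc-173493 have the RefSeq names crygm2d2 and crygm2d1, which rows within the rule also bear, so they may not be further genes. The summed level of the 8 rows was 3711 ± 432 CPM in vehicle larvae at 7 dpf. The crystallin sums and shares given above leave these counts out. None of the 8 was called at 7 dpf (edgeR), against 14.6% of all genes higher and 14.2% lower. Their median log2 fold change was -0.38, against 0.01 over all genes. All 8 were lower without treated replicate 5, against 21.5% of all genes, with a median of -0.77 against -0.01 over all genes. Of 4 genes for enzyme-type proteins with crystallin names, cryz, which encodes a quinone reductase, fell at both ages (log2 -0.57 at 6 dpf and -0.56 at 7 dpf), and cryzl1, cryl1 and crym did not pass with all libraries.

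Across the 40 libraries the mean scaled profile of the 46 crystallins was followed most closely, among well-counted genes outside the family, by sec14l1 (Pearson r = 0.957), rdh14a (0.948), gnl1 (0.947), pah (0.946) and calcoco1 (0.945). These libraries share age and treatment, so the values describe a likeness of profile only. Within the family the correlation with the mean profile ranged from -0.53 for crygs1 to 0.988 for crygm2d12.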

How the data were processed

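RNA of 40 whole-animal zebrafish libraries was analysed in 8 groups of 5, taken from the labels. The authors deposited whole-number counts per gene, whose totals differ between libraries as raw counts do. The submitters' processing notes name CASAVA 1.4 and HTSeq 0.5.3p3. Aligner and genome build are not given in the sources used here. The library kit does not mark strand. A deposited exon table served only for its replicate numbers.

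The 46 crystallins, the gene lists and the rule for named genes were chosen with earlier results of these data known. The rule named the 2 genes of each class with the highest level, up to 10 called genes by p per treatment comparison (3 where none was called), up to 5 each way by fold per vehicle comparison at a mean log2 CPM of at least 2, the 5 smallest interaction p-values, the 5 genes most like the family and 3 per list. Other crystallins with values were chosen after these were seen.

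Each comparison was fitted on the whole table in R 4.3.3 by the quasi-likelihood functions glmQLFit and glmQLFTest of edgeR 4.0.16, after filterByExpr, TMM scaling and robust dispersion estimates, with Benjamini-Hochberg adjustment over all genes tested and a threshold of 0.05. The filter left 37 of 46 crystallins tested at 2 dpf, 43 at 4 dpf, 44 at 6 dpf and 45 at 7 dpf. Interactions used all 40 libraries. The scripts were tested on simulated data. Alternatives were RLE or no scaling factors, TMM without the crystallins, other filters, DESeq2 1.42.0, limma 3.58.1 (voom with quality weights), a fit of all 40 libraries, replicate blocks and leaving out libraries.

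No libraries of a group agreed within sampling noise, with a smallest chi-square per degree of freedom of 21.5. Label numbers did not pair treated with vehicle libraries (at most 2 of 5 pairs had a correlation of deviations over 0.1). Numbers of the exon table did at 2, 4 and 6 dpf (5 of 5 pairs, 0.20 to 0.86), where gene-table treated replicate 5 is number 1. Label numbers paired the vehicle ages (5 of 5 pairs, 0.17 to 0.76), though at 7 and 6 dpf only 2 of 5 libraries were closest to their own number.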

Additional observations from a re-analysis of the deposited data

Results flagged for a closer look

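The screen covered class sums and the crystallins named by level, treatment, age or interaction in the rule above, where a group averaged at least 1 CPM. Other crystallins were not screened. Among 251 groups of 5 libraries, 31 held a library whose gap to its nearest neighbour exceeded 0.71 of the group's range. Chance flags about 1 in 20 groups, but these groups share libraries and are not independent. In 28 of the 31 the library was the shallowest of its group.

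Treated replicate 5 stood high at 7 dpf in 8 cases: the beta B sum with 9055 CPM, and, in CPM, crygm2d2 at 726, crybb1l2 at 4387, crygm2d13 at 2037, cryba1a at 27.1, crygm2d16 at 496, crygm2f at 35.8 and crygm2d8 at 1286. At 6 dpf it stood high for crygmxl1 at 5.75, crygm2d13 at 1432, crygm2d11 at 289.8, crygm2d8 at 905 and crygm2d12 at 442 CPM. At 4 dpf it stood high for crygm2d8 at 465 and crygm2d12 at 214 CPM, and at 2 dpf low for crygm5 at 1.08 CPM.

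Vehicle replicate 1 stood apart at 7 dpf in 6 cases: high for the gamma M sum with 7473 CPM, and, in CPM, for crygm2d13 at 1633, crygm2d11 at 326, crygm5 at 17.7 and crygm2d8 at 1004, and low for cryba1l at 2010.1. At 6 dpf it was low for cryba1l at 1667 and cryba1b at 1573 CPM and high for crygm2d16 at 302 CPM. At 4 dpf it was high for crygm2d16 at 168 and crygm2d8 at 437 CPM, and at 2 dpf low for crygmx at 44.2 CPM.

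The other flags were treated replicate 3 at 4 dpf, high for cryba1b at 1263 and crybb1l3 at 3.97 CPM, and vehicle replicate 5 at 7 dpf, high for the beta B sum with 8401 CPM.

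The response to calcitriol differed between ages for 5 of 46 crystallins by the interaction test of edgeR, against 7.79% of all genes. That count lies near the share of all genes. Leaving out replicate 2, 3 or 4 of all groups left the call of crygmx and no other. The treatment effect at 7 dpf minus that at 4 dpf was -1.12 for crygmx, -1.55 for cryaa, -0.74 for cryba1l and -0.69 for cryba1b on the log2 scale, and the effect at 6 dpf minus that at 2 dpf was 1.37 for crygmxl1.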

How the results depend on the processing

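Of 116 results for single crystallins, 110 were called in the main fit. Over 2312 alternatives to them 2136 kept the call, 173 lost it, 3 gained it and 0 turned direction. Most genes not called in the main fit were left out here, so gains of calls could hardly show. Of 504 list counts 427 stayed within 1.5 times. These include counts at 2 and 4 dpf, where the main fit called 0 genes in every list. Shares in parentheses are those of all genes called. At 4 dpf DESeq2 called 1 crystallin (0.768%) and the block by exon-table numbers 3 (9.36%). At 7 dpf, against 15 (28.8%), limma voom called 39 (61.7%), the fit without the shallowest library of each group 37 (56.6%), and the fits that left out 1 library 12 to 37 (20.6% to 42.2%). The 37 came without treated replicate 5. At 6 dpf leaving out 1 library gave 8 to 14 (6.28% to 17.1%), against 11 (10.7%).

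For vehicle 7 against 6 dpf, against 18 (12.0%), no scaling gave 8 (14.2%), limma voom 32 (34.7%), the fit of all 40 libraries 2 (8.76%), the fit without the shallowest libraries 30 (26.9%) and the replicate block 31 (32.7%), and leaving out 1 library gave 7 to 25 (6.88% to 19.9%). It gave 7 without vehicle replicate 2 of 7 dpf or replicates 3 or 4 of 6 dpf, 8 without replicate 5 of 7 dpf, and 11 without replicates 3 or 4 of 7 dpf. For the response that differs between ages, against 5 (1 positive, 4 negative), no scaling gave 3, 1 positive and 2 negative (12.4%), DESeq2 9 (10.7%), limma voom 32 (32.2%), the fit without the shallowest libraries 26 (22.7%), and the replicate block 8 by the labels (9.38%) and 8 by the exon table (17.9%), the second chosen after seeing the data. Leaving out 1 replicate number gave 1 to 26 (2.78% to 13.2%). The cause was not tested.

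At 7 dpf the exon-table numbers paired 4 of 5 libraries and were not taken as pairing: that block gave 8 higher (20.4%) and 14 lower (18.0%), and the label block 7 higher (8.89%) and 10 lower (9.85%). At 6 dpf the exon-table block gave 10 higher (12.9%) and 3 lower (12.7%), with crygm2f and crybb1l2 added. Elsewhere the replicate block left the counts within 1.5 times. Low counts left 9 of 46 crystallins untested at 2 dpf.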
